A study of Mus musculus with 12 samples.

Results

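SR3335 was set directly against SR1078 in Kupffer cells, macrophages that line the blood sinusoids of the mouse liver. By the labels, SR1078 activates ROR receptors and SR3335 is an inverse agonist at ROR-alpha. The comparison rests on 4 of the 12 bead arrays of the series, 2 for each compound, chosen by their titles. A probe was used when its detection p, set by that array's negative control beads, was under 0.05 on at least 2 of these 4 arrays, and 12602 of 25697 probes met this. They represent 8777 of the 16593 genes with a symbol on the array, each by its probe with the highest mean signal over the 4 arrays.

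All cells came from male C57BL/6 mice aged 8 weeks, isolated by collagenase perfusion and a Percoll gradient and kept in primary culture. The 3 groups used here were cells given SR3335 at 10 mM, cells given SR1078 at 5 mM and cells given the solvent DMSO alone (vehicle), each for 24 h on 2 arrays. The concentrations are as the labels print them. Their unit could not be checked, and the doses differ, so compound and dose cannot be told apart. The other arrays (cells given LPS at 10 ng/ml or IL-4 at 20 ng/ml, and M0 cells with no named treatment or time) serve below only to define lists of responsive genes. The labels do not say whether the 2 arrays of a group stand for separate animals or cultures, and p-values then cover only the spread between these samples, which may be technical.

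ROR-alpha is a nuclear receptor that binds DNA as a monomer and raises transcription of its targets without needing an added ligand. An inverse agonist lowers that basal activity, and an agonist raises it. In liver the receptor is known for its part in lipid metabolism and in the circadian clock, where it acts on the same DNA elements as the REV-ERB repressors. Macrophages exposed to bacterial products switch on inflammatory genes such as Nos2, the inducible nitric oxide synthase, and those exposed to IL-4 switch on a different programme that includes Retnla, Arg1 and Mrc1.

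Detection per array covered 47.4% to 49.1% of the probes. Replicate arrays correlated across the kept probes at r = 0.9958 to 0.9964, and arrays of different groups at 0.9904 to 0.9937. Kupffer cell genes were present: 23 of the 30 genes of that list were measured, all 23 were detected on each of the 6 arrays, and Cd163 and Cd5l were not detected often enough to be used. Signals below are background-corrected, quantile-normalized and on the log2 scale. A value after ± is a standard error (SE), that of the log2 difference between groups of 2 arrays (n = 2 each), and a gene passed at a Benjamini-Hochberg adjusted p under 0.05 in limma.

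The deposited tables do not hold the same values for every probe. Quantile normalization of the deposited signals gave the authors' processed values to within 0.011 log2, except for 30 probes on the SR3335, SR1078 and vehicle arrays, which differed by 0.0605 to 2.32. No probe of the M0, LPS and IL-4 arrays differed in this way. Of the 30, 29 were among the kept probes, and 28 belong to 23 named genes, which include Rora, Klf4, Igf1, Arg1, Mrc1, Chil3, Ccl24, Matk, Nfkbiz, Gadd45a, Clec4g, Dbp and Aldh1b1. For 5 of the 30 probes the signal was also out of step with its own detection p, in 12 probe and array pairs, all of them on the SR3335 and SR1078 arrays. The results below say where they rest on such a probe, and the origin of the differences was not tested.

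The 2 compounds differed in 850 of 12602 probes (6.74%), 439 higher (3.48%) and 411 lower (3.26%) with SR3335. Counted by gene, 620 of 8777 passed (7.06%), of which 317 were higher (3.61%) and 303 lower (3.45%). Every count of passing list members below is to be read beside these shares. The near-even split depended on the scaling: with each array centred on its median in place of quantile normalization, 274 probes were higher and 495 lower (35.6% higher, against 51.6%), and 197 genes were higher and 356 lower. Of the 620 genes, 45 differed at least 2-fold, 26 higher and 19 lower, and 11 of the 620 rest on a probe that differs between the deposited tables. All called genes had both SR3335 arrays beyond both SR1078 arrays, an arrangement seen in 55.7% of all genes tested. Fewer probes passed whichever array was left out. The group of that array then has no spread of its own and the fit has fewer degrees of freedom. The cause of the drop was not tested. The differences moved little for Il27 (0.99 to 1.04), Ifng (1.65 to 1.81) and Calb2 (1.44 to 1.49), and more for Nos2 (0.87 to 1.38). No named gene changed direction. With SR3335 replicate 2 left out 82 probes passed, and with SR3335 replicate 1, SR1078 replicate 1 or SR1078 replicate 2 left out none did in limma, while 2469, 2640 and 2406 probes had an unadjusted p under 0.05. With vehicle replicate 1 or 2 left out, 338 or 343 passed.

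**Figure D1:**
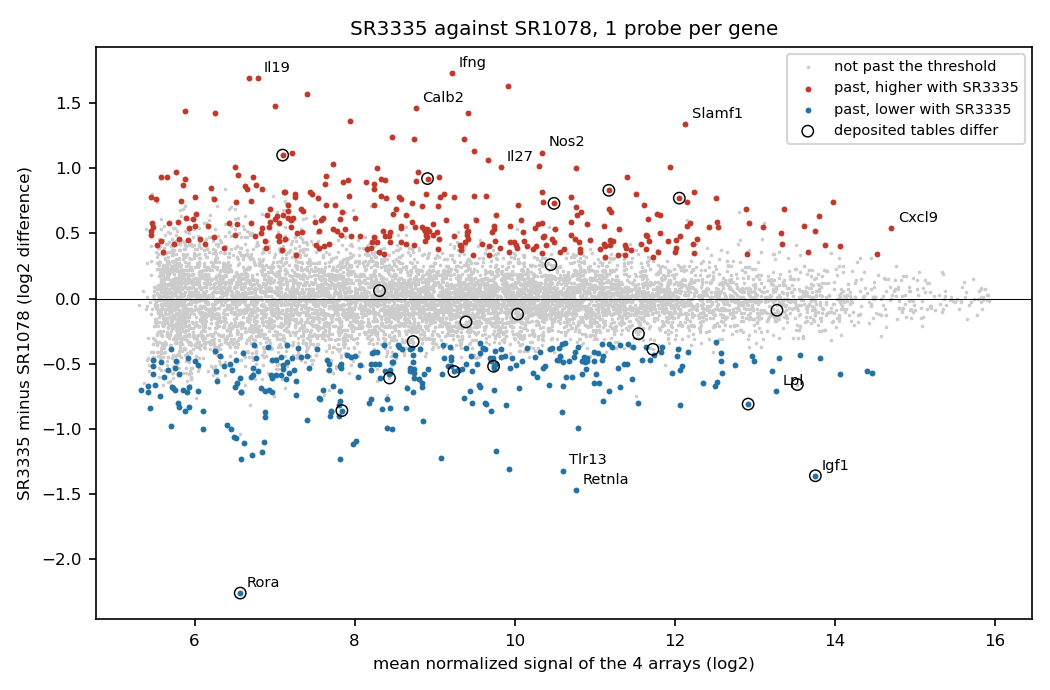
Log2 difference SR3335 minus SR1078 (vertical axis) against the mean log2 signal of the 4 arrays (horizontal axis), 1 point per gene. Of 8777 genes 317 passed as higher (red) and 303 as lower with SR3335 (blue), at all signal levels, and circles mark genes whose probe differs between the deposited tables.

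Inflammatory genes were among those higher with SR3335. Il27, which encodes the p28 subunit of interleukin 27, read 10.33 and 10.32 with SR3335, 9.34 and 9.29 with SR1078, and 9.43 and 9.47 with vehicle. It was 2.01-fold higher with SR3335 than with SR1078 (log2 difference 1.01 ± 0.07, adjusted p = 0.00683). Both SR3335 arrays lay above the other 4, which lay close together. Ebi3, the partner subunit that completes interleukin 27, read 12.52 and 12.52 with SR3335, 11.84 and 11.71 with SR1078, and 11.96 and 12.04 with vehicle (0.74 ± 0.08, adjusted p = 0.012). Nos2 read 10.87 and 10.94 with SR3335, 10.04 and 9.53 with SR1078, and 9.83 and 9.87 with vehicle. It was 2.17-fold higher with SR3335 (1.12 ± 0.16, adjusted p = 0.022), and the 2 SR1078 arrays were farther apart than the others. Nos2 missed the threshold in the fits over the 4 arrays alone (adjusted p = 0.0536 and 0.0561) and whenever any 1 of the 6 arrays was left out (adjusted p 0.0532 to 0.096), whereas Il27 passed in 3 of those 6 fits (0.0274 to 0.0698).

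Igf1, which encodes the growth factor IGF-1, was lower with SR3335. It read 13 and 13.14 with SR3335, 14.31 and 14.57 with SR1078, and 13.73 and 13.59 with vehicle, so the SR3335 arrays lay below and the SR1078 arrays above both vehicle arrays. The difference was -1.36 ± 0.12 (2.58-fold lower, adjusted p = 0.00833). Its single probe is among the 30 that differ between the deposited tables. The authors' processed values gave -1.37, and the detection p was 0 on all 6 arrays, so it offers no check of the signal.

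Rora, the gene of the receptor itself, is listed with deposited signals of 123.2 and 134.1 with SR3335, 350.1 and 295.8 with SR1078, and 225.6 and 223.3 with vehicle. On the SR3335 and SR1078 arrays these signals did not match the detection p listed beside them. They were compared with the probes of the same array on which the deposited tables agree. With SR3335 replicate 1 the detection p was 0.0388, where probes of larger p ended at a signal of 142.8 and those of smaller p began at 143.2, and with SR3335 replicate 2 it was 0.0439, where both lay at 135.7. With SR1078 replicate 1 it was 0.00501, where probes of larger p ended at 185 and those of smaller p began at 201, and with SR1078 replicate 2 it was 0.00376, where these signals were 195.1 and 198.1. Read against those probes, the listed signals were thus lower with SR3335 and higher with SR1078 than their detection p values, while both vehicle signals were in step. The listed signals gave a log2 difference of -2.26 ± 0.16 (adjusted p = 0.00683), which was -1.2 without background correction and -1.31 in the authors' processed values. Which of these values was measured was not tested, so no change of Rora is stated here.

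Klf4, a transcription factor gene tied to macrophage polarization, had 3 kept probes, all among the 30. The brightest read 9.93 and 10.02 with SR3335, 10.01 and 10.18 with SR1078, and 9.73 and 9.84 with vehicle, and its difference of -0.12 ± 0.09 did not pass (adjusted p = 0.488). The other probes gave -2.52 and -1.58 and both passed (adjusted p = 0.00683 each), and the authors' processed values gave -1.57 and -1.03 for them. For the first of these, signals of 173.4 and 183.4 with SR3335 stood beside a detection p of 0, although probes on which the deposited tables agree had a detection p above 0 at signals up to 213.7 and 246. The 3 probes do not give 1 answer for Klf4.

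Promoter sequences are shown for 3 passing genes, picked with the results known: Ebi3 and Il19, higher with SR3335, and Retnla, lower with SR3335. These 3 sequences do not stand for those of the other passing genes. Each runs from 250 bases before to 50 after the RefSeq start of the gene in GRCm38.p6, on the gene's strand, at chr17:55952373-55952672 (plus strand), chr1:130940066-130940365 (minus strand) and chr16:48842359-48842658 (plus strand). Capitals mark matches to the motifs described after them.
Ebi3: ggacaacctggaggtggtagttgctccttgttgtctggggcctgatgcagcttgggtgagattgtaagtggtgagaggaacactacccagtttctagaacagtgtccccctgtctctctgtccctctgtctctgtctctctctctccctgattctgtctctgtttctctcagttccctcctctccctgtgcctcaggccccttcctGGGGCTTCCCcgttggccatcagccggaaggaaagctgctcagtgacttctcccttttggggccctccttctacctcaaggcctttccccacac
Il19: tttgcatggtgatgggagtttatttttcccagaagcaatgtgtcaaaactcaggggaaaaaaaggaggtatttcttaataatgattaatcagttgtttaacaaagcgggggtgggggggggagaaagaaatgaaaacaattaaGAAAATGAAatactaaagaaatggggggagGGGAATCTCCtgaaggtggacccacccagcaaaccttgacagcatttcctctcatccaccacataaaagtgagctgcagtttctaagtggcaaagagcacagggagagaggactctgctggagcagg
Retnla: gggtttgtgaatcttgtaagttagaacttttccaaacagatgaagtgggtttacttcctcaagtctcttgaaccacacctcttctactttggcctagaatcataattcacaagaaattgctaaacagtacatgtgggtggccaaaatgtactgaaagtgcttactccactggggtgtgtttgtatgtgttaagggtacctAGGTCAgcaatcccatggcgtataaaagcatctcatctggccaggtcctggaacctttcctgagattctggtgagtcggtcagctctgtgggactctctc

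The motifs, chosen with the results known, were searched on both strands of the windows of 7211 tested genes. Positions count from 1 at the start of the gene, with negative numbers before it. AGGTCA, a core sequence bound by many nuclear receptors including ROR-alpha, stands once in the Retnla window, with its first base at -50. The NF-kB consensus stands at -44 in Ebi3 and at -77 in Il19. GAAANNGAA, the core of interferon-stimulated response elements, stands at -107 in Il19. AGGTCA was found in 13.2% of the 250 windows of genes higher with SR3335, in 21.2% of the 241 windows of genes lower with SR3335, and in 15.7% of all 7211. The NF-kB consensus was found in 10.8%, 3.73% and 6.32% of these windows, and GAAANNGAA in 14.8%, 8.3% and 8.99%. The full ROR response element consensus, most of whose matches contain AGGTCA, was in 0 of the windows of genes higher with SR3335, in 2 of those lower and in 44 of all (0.61%). A match describes letters, not binding, and these shares were not tested.

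The 15 genes with the largest positive difference were led by Ifng, which encodes interferon gamma. It read 10.16 and 10.00 with SR3335, 8.41 and 8.30 with SR1078, and 8.55 and 8.52 with vehicle, and was 3.31-fold higher with SR3335 (1.73 ± 0.09, adjusted p = 0.00683). Il19, a cytokine gene of the interleukin 10 family, read 7.69 and 7.57 with SR3335, 6.02 and 5.87 with SR1078, and 5.91 and 6.16 with vehicle (1.69 ± 0.11). For both genes the SR1078 arrays lay beside the vehicle arrays, and the SR3335 arrays lay apart. Il5, which encodes the eosinophil growth factor interleukin 5, read 7.03 and 6.91 with SR3335 and 5.71 and 5.39 with SR1078, and was detected on 1 of the 2 SR1078 arrays (1.42 ± 0.19, adjusted p = 0.0169). Slamf1, a receptor gene of activated lymphocytes and macrophages, was the brightest of the 15, with 12.88 and 12.73 with SR3335, 11.57 and 11.35 with SR1078, and 11.30 and 11.43 with vehicle (1.34 ± 0.11).

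Ifng, Il5 and Xcl1, which is described below, are known as products of T and NK cells. Of the 20 marker genes of those cells 12 were measured, and 1 of them passed (8.33%, beside 7.06% over all genes), Cd8b1 (0.58 ± 0.07, adjusted p = 0.0141). The summed signal of the 12 was 11100 to 11200 with SR3335, 10400 to 11000 with SR1078 and 11100 to 11600 with vehicle, and Cd3e differed by -0.06. Cd4, Cd5, Cd8a, Gzma, Gzmb and Ncr1 were not detected often enough to be used. In bulk RNA, fewer cells of a type and less RNA per cell cannot be told apart.

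The rest of the 15 were not cytokines. Calb2, the gene of calretinin, a protein that binds calcium, read 9.48 and 9.50 with SR3335, 8.06 and 8.00 with SR1078, and 7.70 and 7.69 with vehicle (1.46 ± 0.07, adjusted p = 0.00683). Krt16, a keratin gene, read 10.12 and 10.12 with SR3335, 8.73 and 8.67 with SR1078, and 8.89 and 9.08 with vehicle (1.42 ± 0.09). Sprr2d, a gene of the cornified envelope of skin, differed by 1.69 ± 0.12. Like the keratin, it was high on both SR3335 arrays and close to vehicle with SR1078. Receptor and ligand genes followed: Gpr83, a G-protein-coupled receptor, at 1.63 ± 0.14, Tacr2, the neurokinin A receptor, at 1.48 ± 0.14, and Sema4f, a semaphorin, at 1.57 ± 0.18. Syt7, a calcium sensor of vesicle fusion, was not detected on either SR1078 array and was at least 2.02-fold higher with SR3335 (adjusted p = 0.00712). Rnf225 (1.36 ± 0.11), Atxn7l1 (1.24 ± 0.08), Tmem267 (1.22 ± 0.12) and Ildr1, a tricellular junction gene (1.22 ± 0.10), completed them.

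The 15 genes with the largest negative difference included Rora and Igf1, described above, and Retnla, which encodes the secreted protein RELM-alpha of IL-4-activated macrophages. Retnla read 9.97 and 10.09 with SR3335, 11.37 and 11.62 with SR1078, and 9.81 and 9.75 with vehicle. It was 2.76-fold lower with SR3335 than with SR1078 (-1.47 ± 0.10, adjusted p = 0.00683), with the SR1078 arrays above the other 4. Tlr13, an endosomal sensor of bacterial ribosomal RNA, read 9.81 and 10.07 with SR3335, 11.14 and 11.38 with SR1078, and 11.07 and 11.06 with vehicle (-1.32 ± 0.12, adjusted p = 0.0103). Here the SR3335 arrays lay below the other 4. Nos3, the endothelial nitric oxide synthase, read 6.04 and 6.08 with SR3335, 7.13 and 7.21 with SR1078, and 6.02 and 6.00 with vehicle (-1.11 ± 0.07, adjusted p = 0.00683), the same order as Retnla. Its other kept probes put vehicle between the compounds. Group means with SR3335, SR1078 and vehicle were 5.77, 6.91 and 6.29 on one and 5.42, 6.5 and 5.81 on the other. Xcl1, which encodes the chemokine lymphotactin, read 7.14 and 7.27 with SR3335, 8.43 and 8.45 with SR1078, and 8.10 and 8.17 with vehicle (-1.23 ± 0.08).

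The other members of that group have varied roles. Cyp4b1, a cytochrome P450 gene, differed by -1.22 ± 0.11, Acot4, a peroxisomal thioesterase, by -1.20 ± 0.12, and Abcc3, an exporter of organic anions, by -1.17 ± 0.10. Cela1, an elastase gene, read 6.22 and 6.27 with SR3335, 7.26 and 7.60 with SR1078, and 7.77 and 7.74 with vehicle (-1.18 ± 0.12). It was thus lowest with SR3335 and highest with vehicle. Eml1, a microtubule-associated protein gene, differed by -1.31 ± 0.10, Hey1, a target of Notch signalling, by -1.09 ± 0.07, Ldb2, a cofactor of LIM-domain proteins, by -1.12 ± 0.11, Fam20a by -1.23 ± 0.18 and Clec4b1, a C-type lectin receptor, by -1.10 ± 0.13. For 12 of the 30 genes with the largest differences, most of them dim, the difference without background correction was smaller by over 1.5 times. These were Rora, Sprr2d (0.91), Il19 (0.93), Sema4f (1.02), Tacr2 (0.87), Syt7 (0.66), Il5 (0.68), Fam20a (-0.64), Acot4 (-0.65), Cela1 (-0.67), Nos3 (-0.58) and Clec4b1 (-0.62).

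**Figure D2:**
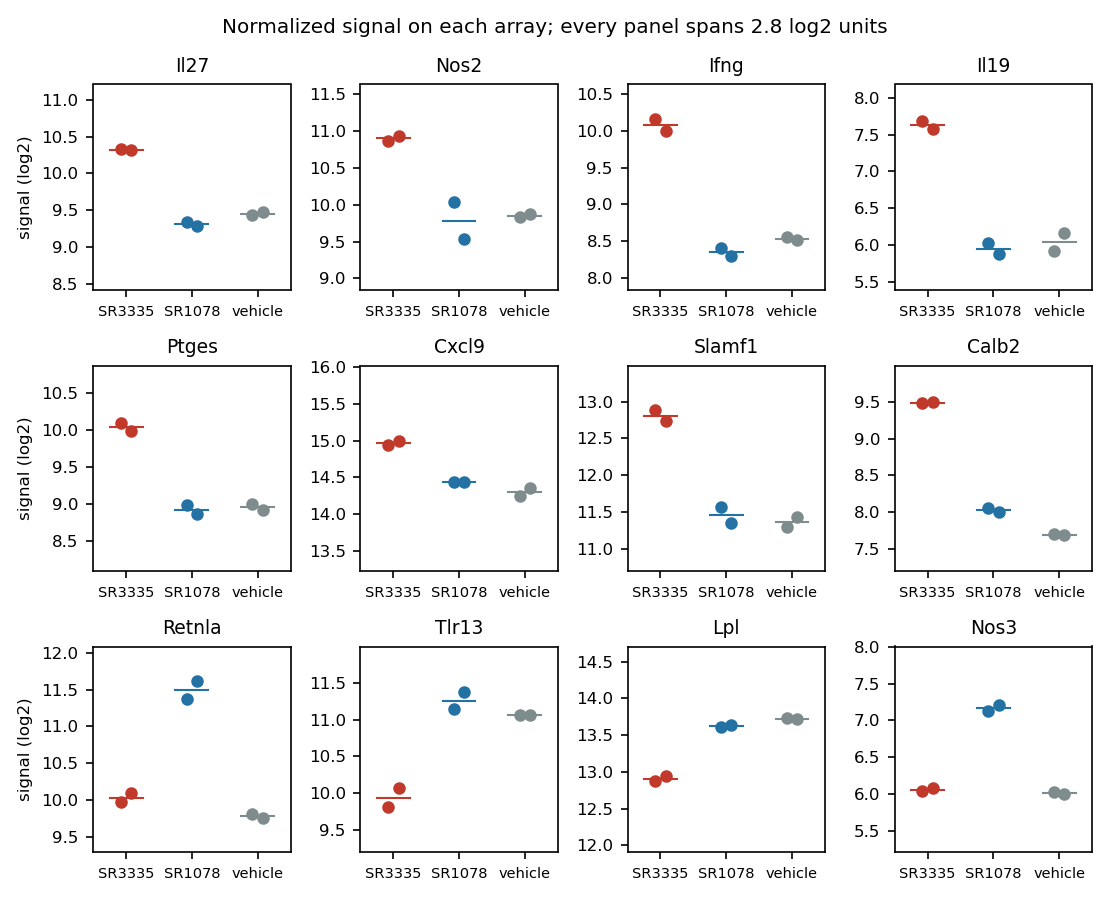
Normalized log2 signal (vertical axis) of 12 genes on each array (points, 2 per group) and the group mean (line), for SR3335, SR1078 and vehicle from left to right. Il27, Nos2, Ifng, Il19, Ptges, Cxcl9, Slamf1 and Calb2 are highest with SR3335, Tlr13 and Lpl lowest with SR3335, and Retnla and Nos3 highest with SR1078, where Retnla reads 11.37 and 11.62.

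The genes of the inflammatory (M1) list that passed were all higher with SR3335. Of its 31 genes 27 were measured, 13 were higher and none was lower, beside 3.61% higher and 3.45% lower over all genes, with a median difference of 0.42 against -0.01 over all 8777 genes. At an unadjusted p under 0.05 these counts were 21 and 1. The 13 were Ptges, Nos2, Il27, Il12a, Ebi3, Cd40, Lcn2, Saa3, Gpr18, Il1b, Cxcl9, Tnf and Cxcl10. Ptges, an inducible prostaglandin E synthase, read 10.10 and 9.99 with SR3335, 8.98 and 8.86 with SR1078, and 8.99 and 8.91 with vehicle (1.13 ± 0.08, adjusted p = 0.00688). Il12a, the p35 subunit of interleukin 12, was not detected with SR1078 and was at least 1.2-fold higher with SR3335 (adjusted p = 0.0129). It met the filter only through the SR3335 arrays, where it is high, so its call adds nothing to the count of 13. Lcn2, which encodes the iron-scavenging lipocalin 2, differed by 0.70 ± 0.13 and Cd40, a costimulatory receptor, by 0.74 ± 0.08. Ptgs2 (0.08), Irf1 (0.05) and Il23a (-0.09) did not pass, and Marco, a scavenger receptor gene on the list, read -0.38 (adjusted p = 0.0564). None of the 13 rests on a probe that differs between the deposited tables. The count was 3 without SR3335 replicate 2 and 0 without SR3335 replicate 1 or either SR1078 replicate.

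The M2 list, genes of IL-4-activated macrophages, had 24 of 36 members measured, 2 higher and 7 lower with SR3335 (median -0.15). Those lower were Retnla, Flt1, Matk, Pparg, Mrc1, Ccl24 and Irf4, of which Matk, Mrc1 and Ccl24 rest on differing probes. Flt1, a receptor of vascular endothelial growth factor, read 7.83 and 8.00 with SR3335, 8.97 and 8.84 with SR1078, and 7.74 and 7.91 with vehicle (-0.99 ± 0.10, adjusted p = 0.0118). Pparg, a lipid-sensing nuclear receptor, read 8.15 and 8.28 with SR3335, 9.05 and 9.06 with SR1078, and 9.34 and 9.30 with vehicle (-0.84 ± 0.08, adjusted p = 0.0103). Flt1 was thus raised with SR1078, and Pparg lowered with SR3335, relative to vehicle. Those higher were Il10, an anti-inflammatory cytokine (0.42 ± 0.07), and Cish, a feedback inhibitor of cytokine signalling (0.38 ± 0.07). With median centring 0 were higher and 8 lower. Arg1 (-0.66, adjusted p = 0.0849) and Chil3 (-0.61, adjusted p = 0.0894), the other widely used M2 markers, did not pass, and both rest on differing probes.

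Lists of cytokine families showed the same side, in part through the same genes. Il27, Il12a, Ebi3 and Il1b are also on the M1 list, and Il10 is on the M2 list. The list of interleukin 12 and 6 family genes and their receptors also holds Il10, which belongs to neither family. Of its 16 measured genes 5 were higher with SR3335 (Il27, Il12a, Ebi3, Lif and Il10) and none lower. At an unadjusted p under 0.05 these counts were 10 and 1. Il12a met the filter only through the SR3335 arrays, so its call adds nothing to them. Lif, a cytokine of the interleukin 6 family, differed by 0.50 ± 0.08. Of 10 genes of the interleukin 1 family, 3 were higher and none lower (7 and 0 unadjusted, median 0.42). Il33, an alarmin, read 12.68 and 12.94 with SR3335, 12.22 and 12.24 with SR1078, and 12.17 and 12.35 with vehicle (0.59 ± 0.11, adjusted p = 0.042). Il1b, a central inflammatory cytokine, read 13.92 and 13.86 with SR3335, 13.31 and 13.34 with SR1078, and 13.70 and 13.67 with vehicle (0.56 ± 0.07, adjusted p = 0.0151). Vehicle lay between the compounds for Il1b, and beside SR1078 for Il33. Il1rap, the shared accessory receptor, differed by 0.46 ± 0.09 and was detected on 1 SR1078 array.

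Chemokines did not move in 1 direction: of 21 measured, 3 were higher and 4 lower with SR3335. Cxcl2, which attracts neutrophils, read 12.12 and 12.08 with SR3335, 11.46 and 11.44 with SR1078, and 11.35 and 11.41 with vehicle (0.65 ± 0.07, adjusted p = 0.0117). Cxcl9 and Cxcl10, which attract T cells and are induced by interferon gamma, differed by 0.54 ± 0.07 and 0.34 ± 0.07. Ccl6, a macrophage chemokine of mice, read 9.49 and 9.49 with SR3335, 10.28 and 10.33 with SR1078, and 10.51 and 10.37 with vehicle (-0.82 ± 0.08, adjusted p = 0.0106). The others lower were Xcl1, Cxcl14 and Ccl24, the last on a differing probe.

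Of 20 genes of the transcription factor NF-kB and its feedback, 7 were higher with SR3335 and none lower (12 and 0 unadjusted, median 0.33). They were Nfkbiz, Traf1, Nfkbib, Tnfaip3, Zc3h12a, Tnip1 and Rel, and with median centring 4 were higher and none lower. Tnfaip3, which encodes the deubiquitinase A20, read 12.49 and 12.53 with SR3335, 12.11 and 11.99 with SR1078, and 12.08 and 12.14 with vehicle (0.46 ± 0.08, adjusted p = 0.0294). Traf1, an adaptor of tumour necrosis factor receptors, differed by 0.55 ± 0.09. Nfkbiz (0.83 ± 0.10) rests on a differing probe. Nfkbia, the classic early inhibitor gene, differed by 0.11 and did not pass. Against vehicle, 3 of the 20 were higher with SR3335, Tnfaip3 among them, and none lower (6 and 2 unadjusted, median 0.09). With SR1078 none was higher and 1 lower, Nfkbiz (0 and 6 unadjusted, median -0.15).

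Interferon-stimulated genes passed at about the share of all genes. Of 36 measured, 2 were higher (Ifi205 and Cxcl10) and none lower, 5.56% beside 7.06% over all genes, against 8 and 1 at an unadjusted p under 0.05, and the median was 0.14. For 35 of the 36 the 95% interval of the difference lay within 2-fold. Ifi205, a DNA-sensor family gene, differed by 0.48 ± 0.07 (adjusted p = 0.022). Of 17 genes of MHC class I and peptide loading none passed in limma, with 4 higher and none lower at an unadjusted p under 0.05, and all 17 intervals lay within 2-fold. In the MHC class II list, 1 of 11 passed (9.09%, beside 7.06% over all genes). It was Ciita, the transactivator of that pathway, with 10.20 and 9.86 with SR3335, 9.29 and 9.20 with SR1078, and 9.56 and 9.56 with vehicle (0.79 ± 0.12, adjusted p = 0.0247). H2-Ab1, one of its class II targets, differed by 0.01.

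**Figure D3:**
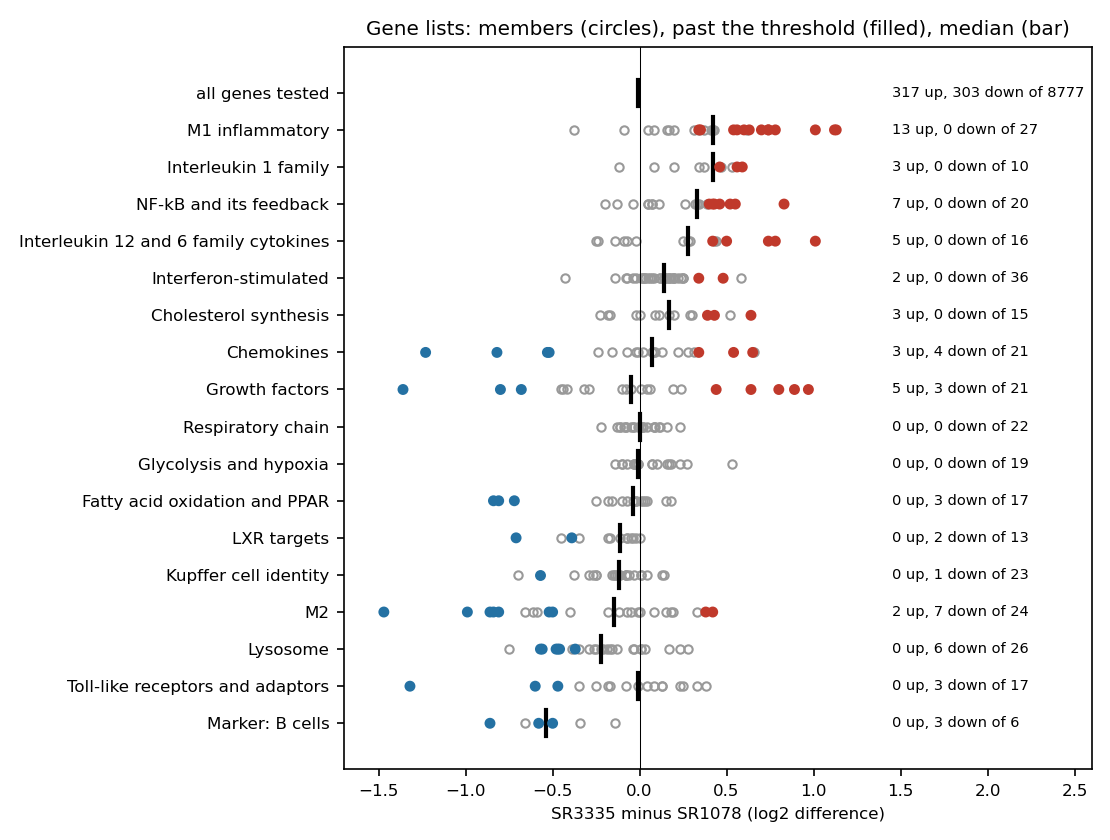
Log2 differences SR3335 minus SR1078 (horizontal axis) of the measured members of 17 gene lists (circles, filled where they passed) and the median (bar), with the median over all genes in the first line. The M1 list has 13 members past the threshold on the right and none on the left, and the lysosome list 6 on the left and none on the right.

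Receptors and sensors of bacterial products were lower where they passed. Of 17 Toll-like receptor and adaptor genes 3 were lower (Tlr13, Tlr4 and Lbp) and none higher, against 4 and 3 unadjusted. That is 17.6% beside 7.06% over all genes. Tlr4, the LPS receptor, read 10.38 and 10.28 with SR3335, 10.95 and 10.92 with SR1078, and 10.94 and 11.03 with vehicle (-0.60 ± 0.08, adjusted p = 0.0161). Lbp, the LPS-binding protein, differed by -0.47 ± 0.09. Among scavenger and apoptotic cell receptors 2 of 17 were lower (11.8%), both of 1 signalling pair: Trem2, a lipid receptor (-0.55 ± 0.07), and Tyrobp, its adaptor (-0.48 ± 0.07). Trem2 read 8.19 and 8.15 with SR3335, 8.70 and 8.75 with SR1078, and 8.84 and 8.85 with vehicle, so vehicle and SR1078 lay together.

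Lysosomal genes were lower with SR3335 in 6 of 26 cases and higher in none (14 and 1 unadjusted), beside 3.45% lower and 3.61% higher over all genes. The list's median was -0.22, and -0.10 with median centring, where that of all genes was -0.05. They were Man2b1, Ctsc, Glb1, Hexa, Ctsl and Gusb, enzymes that break down sugar chains and proteins. Ctsc, a protease that activates other granule proteases, read 12.91 and 12.95 with SR3335, 13.50 and 13.49 with SR1078, and 13.70 and 13.59 with vehicle (-0.56 ± 0.07, adjusted p = 0.0166). Man2b1, a mannosidase, differed by -0.57 ± 0.07, Glb1, the beta-galactosidase, by -0.48 ± 0.08 and Hexa, a hexosaminidase, by -0.47 ± 0.07.

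Lpl, which encodes lipoprotein lipase, read 12.88 and 12.94 with SR3335, 13.61 and 13.64 with SR1078, and 13.73 and 13.72 with vehicle (-0.71 ± 0.07, adjusted p = 0.0106). Among 13 targets of the oxysterol receptor LXR, Lpl and Apoc2, its activator (-0.39 ± 0.08), were lower and none was higher (3 and 0 unadjusted). That is 15.4% beside 7.06% over all genes, with no positive difference among the 13 and a median of -0.11. The other Apoc2 probe, detected on 1 array of each compound, gave 0 (adjusted p = 0.992), so its probes do not give 1 answer. Of 17 genes of fatty acid oxidation and PPAR signalling 3 were lower and none higher (4 and 1 unadjusted): Pparg, Acot1, a cytosolic thioesterase (-0.81 ± 0.08), and Fabp5, a fatty acid carrier (-0.72 ± 0.13). Cholesterol synthesis went the other way, with 3 of 15 higher and none lower (6 and 1 unadjusted). Those were Sqle, the squalene epoxidase (0.64 ± 0.12), Insig1, a sterol-regulated feedback protein (0.43 ± 0.07), and Cyp51, the lanosterol demethylase (0.39 ± 0.07), and with median centring none of the 15 passed in either direction. The other probes of Insig1 gave 0.49 and -0.07, and neither passed (adjusted p = 0.0772 and 0.809).

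Of 26 known target genes of ROR-alpha 13 were measured, and Hamp was higher and Lpl lower with SR3335 (2 and 1 unadjusted), 15.4% beside 7.06% over all genes. The median was 0.01, and -0.02 with median centring. Hamp, which encodes the iron hormone hepcidin, read 11.95 and 11.79 with SR3335, 11.10 and 10.78 with SR1078, and 10.87 and 11.00 with vehicle (0.93 ± 0.13, adjusted p = 0.0186), and it missed the threshold in a fit over all 12 arrays (adjusted p = 0.0989). Arntl, which encodes the clock factor BMAL1, differed by -0.12, Nr1d1, which encodes REV-ERB-alpha, by 0.17, and G6pc, the glucose-6-phosphatase of gluconeogenesis, by -0.05, and none of them passed. Of 14 measured clock genes Per2, a repressor of the clock, was lower (-0.71 ± 0.10, adjusted p = 0.0209) and Dbp, a clock output factor, higher (0.77 ± 0.10, adjusted p = 0.0174), with Dbp on a differing probe.

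Iron and Kupffer cell genes overlapped in Slc40a1, the iron exporter ferroportin that hepcidin removes from the cell surface. It read 14.18 and 14.18 with SR3335, 14.78 and 14.72 with SR1078, and 14.65 and 14.61 with vehicle (-0.57 ± 0.07, adjusted p = 0.0151). It was the 1 of 23 measured Kupffer cell genes to pass (4.35%, beside 7.06% over all genes; 7 lower and 0 higher unadjusted, median -0.12). Clec4f, a lectin restricted to Kupffer cells, differed by 0.01, Vsig4, a complement receptor, by -0.25 and Timd4, a receptor for dying cells, by 0.04. The differences of the 23 ran from -0.70 to 0.14, with 18 negative and 5 positive. Against vehicle the median was -0.21 with SR3335 (1 higher and 13 lower unadjusted) and -0.09 with SR1078 (2 higher and 3 lower unadjusted). The summed signal of the 23 was 265000 to 266000 with SR3335, 278000 to 293000 with SR1078 and 287000 to 293000 with vehicle.

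Growth factor genes passed in both directions, 5 higher and 3 lower of 21 measured (38.1%, beside 7.06% over all genes). Igfbp4, a binding protein of IGF-1, read 9.30 and 9.27 with SR3335, 8.28 and 8.35 with SR1078, and 8.17 and 8.19 with vehicle (0.97 ± 0.07, adjusted p = 0.00683). Csf2, which encodes GM-CSF, read 8.60 and 8.58 with SR3335, 7.69 and 7.71 with SR1078, and 7.92 and 8.16 with vehicle (0.89 ± 0.10, adjusted p = 0.0127). Both were highest with SR3335. Hgf, the hepatocyte growth factor, was not detected with SR3335 and was at least 1.52-fold lower there (adjusted p = 0.033). It met the filter only through the SR1078 arrays, so its call adds nothing to the count of that list. Timp1, an inhibitor of matrix proteases, was higher with SR3335 (0.82 ± 0.09), and the protease genes Mmp12 (-0.53 ± 0.11) and Mmp9 (-0.44 ± 0.09) were lower, out of 14 measured of that list.

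Several cell programmes gave no call. None of 22 respiratory chain genes, 19 genes of glycolysis and hypoxia, 11 mitotic genes or 18 ribosomal protein genes passed in limma, and 1, 2, 4 and 1 of them had an unadjusted p under 0.05. The 95% interval of each of these genes lay within 2-fold, with outer bounds of -0.44 and 0.41 log2 for the respiratory chain and -0.34 and 0.81 for glycolysis and hypoxia. In the glycolysis list 8 of 19 were higher with SR3335 and 7 of 19 with SR1078 when each was set against vehicle, with medians of 0.45 and 0.46 and none lower (17 and 15 higher and 0 lower at an unadjusted p under 0.05). The 2 comparisons share the vehicle arrays.

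Smaller sets of passing genes came from the remaining lists. Dusp2, a phosphatase of MAP kinases, was higher (1.0 ± 0.07, adjusted p = 0.00683) and Dusp6, another of that family, lower (-0.64 ± 0.08, adjusted p = 0.0169) among 20 immediate early genes (10% passing, beside 7.06% over all genes). Ccne1, which encodes cyclin E1, was higher (0.94 ± 0.08) and Pcna, the polymerase clamp (-0.55 ± 0.08), and Tk1, the thymidine kinase (-0.50 ± 0.07), lower among 19 genes of DNA replication (15.8% passing). The other probe of Tk1 gave -0.09 and did not pass (adjusted p = 0.818). Gadd45b, a stress gene, and Mxd1, a Myc antagonist, were higher (0.58 ± 0.07 and 0.49 ± 0.08) and Sesn1, a p53 target, was lower (-0.50 ± 0.08). Gadd45a gave 0.73 on its brightest probe, which is a differing one, and -0.62 on its other probe, so it has no settled direction. Creld2 and Nupr1, both genes of the endoplasmic reticulum and amino acid stress list, were higher (0.44 ± 0.08 and 0.40 ± 0.07). They are 2 of 27 (7.41%), about the share of all genes (7.06%). Mt2, a metallothionein, was higher (0.64 ± 0.10) and Nqo1, a quinone reductase, lower (-0.37 ± 0.08) among 15 NRF2 targets, and Abcb1b, a drug exporter, was higher (0.42 ± 0.07) in the xenobiotic list. Of 16 complement genes (18.8% passing) Serping1, the C1 inhibitor, was higher (0.56 ± 0.08), and Cd59a, which blocks the membrane attack complex, was lower (-0.46 ± 0.08). C1s1, not detected with SR1078, was at least 1.25-fold higher (adjusted p = 0.0277). It met the filter only through the SR3335 arrays, so its call adds nothing to that share.

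Markers of other liver cells moved with some of these genes. Of 17 measured markers of sinusoidal endothelium 4 were lower with SR3335 and 1 higher (29.4%, beside 7.06% over all genes). Clec4g, the higher gene, is on a differing probe, and the median was -0.24. Their summed signal was 23100 to 23900 with SR3335, 25600 to 26100 with SR1078 and 23400 to 24000 with vehicle, and Bmp2 and Gpr182 were not detected often enough to be used. Ptprb, a phosphatase of vascular endothelium, read 8.47 and 8.31 with SR3335, 9.29 and 9.36 with SR1078, and 9.11 and 9.01 with vehicle (-0.94 ± 0.09). Egfl7, a secreted endothelial protein, read on its brighter probe 10.71 and 10.71 with SR3335, 11.45 and 11.55 with SR1078, and 10.58 and 10.47 with vehicle (-0.79 ± 0.08). Its other probe ran the opposite way, with 10.46 and 10.27 with SR3335, 10.01 and 9.94 with SR1078, and 10.02 and 10.19 with vehicle (0.39 ± 0.10, adjusted p = 0.0809), so Egfl7 has no settled direction. Flt1 and Nos3, which endothelial cells also express, were high on the SR1078 arrays alone, Nos3 only on its brightest probe. Sparc, a matrix protein gene of the stellate cell and fibroblast list, was high on the same arrays (-0.87 ± 0.11), the only 1 of 8 to pass. The part of endothelial RNA in these differences was not tested.

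B cell markers were lower with SR3335 in 3 of 6 cases, Cd79a (-0.86 ± 0.09), Cd79b (-0.58 ± 0.08) and Cd22 (-0.50 ± 0.10), with a median of -0.54. Cd79a and Cd79b, the signalling chains of the B cell receptor, read high with SR1078 only: Cd79a read 7.28 and 7.26 with SR3335, 8.08 and 8.19 with SR1078, and 7.11 and 7.30 with vehicle. The summed signal of the 6 was 1520 to 1680 with SR3335, 2220 to 2280 with SR1078 and 1860 to 1870 with vehicle, while Ms4a1, Pax5, Cr2, Ebf1, Fcer2a and Jchain were not detected often enough to be used. Of 8 dendritic cell and monocyte markers 3 were higher, Ccr7, a homing receptor of activated dendritic cells (0.78 ± 0.08), Zbtb46, a dendritic cell factor (0.52 ± 0.10), and Ly6c1 (0.33 ± 0.07), with sums of 9260 to 9600 with SR3335, 7710 to 7880 with SR1078 and 7740 to 7940 with vehicle. Of 8 neutrophil markers Lcn2 was higher and Mmp9 lower, and macrophages express both. No hepatocyte marker of 15 passed in limma (0 higher and 1 lower at an unadjusted p under 0.05), the sums ran from 20200 to 26800 with SR3335, 21700 to 24000 with SR1078 and 18400 to 19800 with vehicle, and Alb was not detected often enough to be used. The part of these cells in the differences was not tested.

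The vehicle arrays show on which side a difference lies. Against vehicle, 761 probes passed with SR3335 (6.04%) and 192 with SR1078 (1.52%). By gene, 572 passed with SR3335 (6.52%), 308 higher (3.51%) and 264 lower (3.01%), and 155 passed with SR1078 (1.77%), 116 higher (1.32%) and 39 lower (0.444%). Of the 192 probes of SR1078 143 were higher and 49 lower. Without background correction 491 were higher and 336 lower, and with median centring 161 were higher and 27 lower. Leaving out any 1 of the 6 arrays brought the SR1078 count to 0 in limma (1844 to 2645 probes at an unadjusted p under 0.05), and the SR3335 count to between 0 and 315 (2051 to 2945). These comparisons share the vehicle arrays with each other and the treated arrays with the direct comparison, so they are not separate evidence. Of the inflammatory (M1) list, 11 of 27 were higher with SR3335 and none lower (17 and 0 unadjusted), and none passed with SR1078 in either direction (3 higher and 7 lower unadjusted), with medians of 0.38 and -0.06. Of the M2 list, 2 were higher and 2 lower with SR3335, and 7 were higher and none lower with SR1078 (11 and 7 unadjusted), 3 of the 7 on differing probes.

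Ifng, Nos2, Ptges, Slamf1, Tlr13, Pparg, Lpl and Ccl6 passed against vehicle with SR3335 and not with SR1078, and each passed in the direct test of the difference. Ifng differed from vehicle by 1.55 with SR3335 and -0.18 with SR1078, Ptges by 1.10 and -0.03, and Tlr13 by -1.12 and 0.19. Retnla, Flt1, Eml1, Nos3 and Cd79a passed with SR1078 and not with SR3335, and in the direct test as well. For Nos3 this holds on its brightest probe, and on its other probes SR1078 minus vehicle did not pass (adjusted p = 0.0844 and 0.124). For Retnla the differences from vehicle were 0.25 with SR3335 and 1.72 with SR1078, for Nos3 0.05 and 1.16, and for Eml1 -0.26 and 1.04. Syt7 and Igf1 passed with both compounds in opposite directions, Syt7 at 0.60 with SR3335 and -0.83 with SR1078. Syt7 was not detected on either SR1078 array, so the size of that -0.83 is not settled. Igf1, on its differing probe, stood at -0.59 and 0.78. Il1b, Rnf225 and Cyp4b1 lay with vehicle between the compounds as well, but only 1 or neither of their differences from vehicle passed. Il1b differed by 0.20 and -0.36, neither past the threshold, while the direct difference between the compounds passed.

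**Figure D4:**
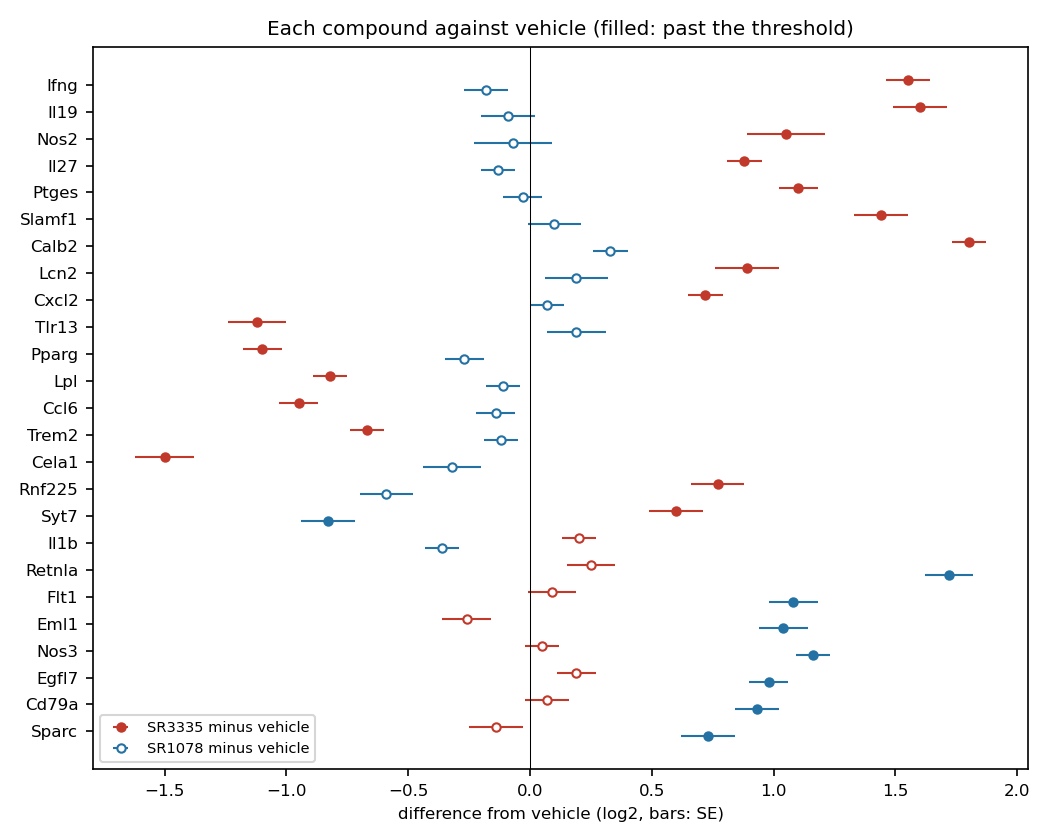
Log2 difference from vehicle (horizontal axis, bars SE, n = 2 arrays per group) of 25 named genes with SR3335 (red, upper) and SR1078 (blue, lower), filled where it passed. From Ifng to Trem2 the SR3335 points lie farther from 0 than the SR1078 points, and from Retnla to Sparc the reverse, with Retnla at 0.25 and 1.72. Egfl7 is drawn from its brighter probe, and its other probe runs the opposite way.

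The genes that differ most between LPS and M0 were compared as lists, taken from arrays which the compound comparison does not use. The labels give no time for M0, so LPS or IL-4 and time in culture cannot be told apart in these lists. Of the 100 genes with the largest rise after LPS 99 were measured, and 37 were higher and 1 lower with SR3335 than with SR1078, beside 3.61% and 3.45% of all genes, with a median of 0.34. None of the 38 rests on a differing probe. Calb2 had the largest LPS difference of all (7.25), and Sprr2d (3.19), Krt16 (1.78) and Slamf1 (3.78) were also on that list. The 1 gene lower was Mmp9. Of the 100 genes with the largest fall after LPS 90 were measured, and 24 were lower and 4 higher with SR3335 (median -0.23), the 28 including 4 on differing probes. Those lower included Igf1, Xcl1, Pparg, Rbfox3, a splicing regulator (-1.07 ± 0.07), and Ifitm6 (-1.0 ± 0.11), and those higher were Rad54b, Ciita, Cd83 and Sqle. Xcl1, Rbfox3, Ifitm6 and others of those lower are also on the list of genes lowered most by IL-4, made with the same M0 arrays. The 37 became 7 and the 24 became 5 without SR3335 replicate 2, both became 0 without SR3335 replicate 1 or either SR1078 replicate, and they became 19 and 14 without either vehicle replicate.

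**Figure D5:**
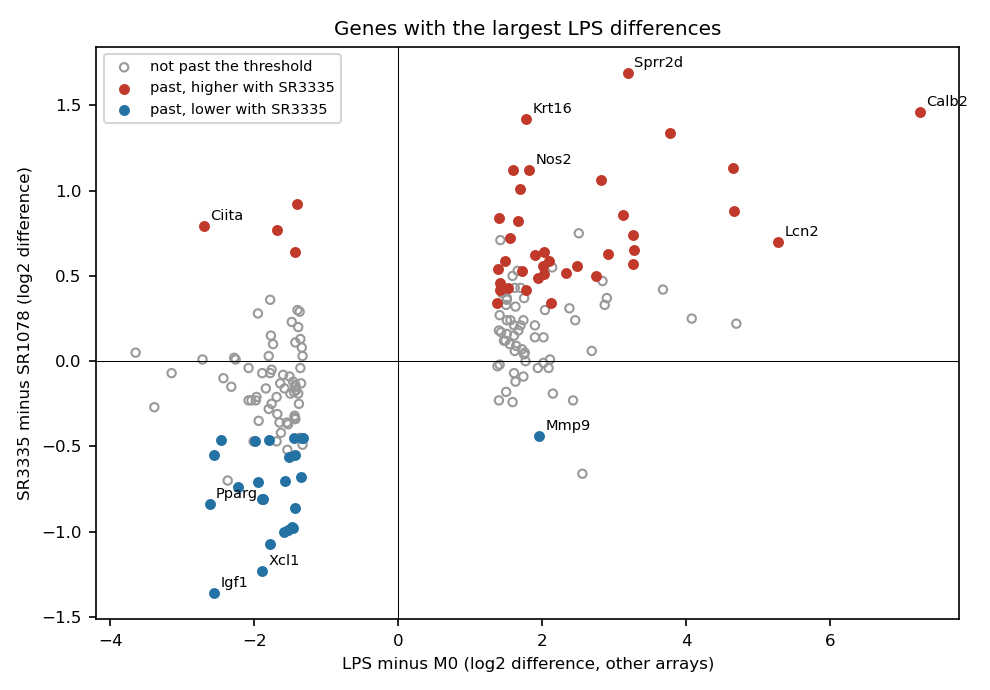
Log2 difference SR3335 minus SR1078 (vertical axis) against LPS minus M0 (horizontal axis, from other arrays) for the measured genes with the 100 largest rises and 100 largest falls after LPS, filled where the compounds differed. On the right 37 of 99 genes are past the threshold above 0 and 1 below, and on the left 24 of 90 below 0 and 4 above.

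Set against vehicle, the LPS-raised list had 34 genes higher and 1 lower with SR3335 (median 0.34), and 1 higher and 1 lower with SR1078 (median 0.01). The LPS-lowered list had 2 higher and 25 lower with SR3335 (median -0.24), and 6 higher and 2 lower with SR1078 (median -0.07). The lists made from IL-4 had passing genes in both directions. Of the 88 measured genes raised most by IL-4, 8 were higher and 11 lower with SR3335 than with SR1078 (median -0.05), 6 of the 19 on differing probes. That is 21.6% beside 7.06% over all genes. Retnla had a difference of 6.80 between IL-4 and M0, and Hspa1a, a heat shock gene on both the LPS and the IL-4 list, was higher with SR3335 (1.01 ± 0.08, adjusted p = 0.00809). Of the 94 lowered most by IL-4, 8 were higher and 18 lower (27.7%, median -0.13), among them Sh3d21 (1.02 ± 0.08), Xcl1 and Rbfox3.

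Detection itself differed for some probes. Of the kept probes 252 were detected on both arrays of 1 compound and on neither array of the other, and 61 of them passed. Of the 11541 detected on all 4 arrays 774 passed. The 252 were picked by the same arrays that were compared. They met the filter only through the compound where they are high, so these shares cannot be set against each other. Syt7, Il12a, Hgf and C1s1 entered in this way. Of the named genes that passed, 30 had other kept probes, 36 in all. Of those 36, 21 passed with the same sign as the gene's main probe. Another 14 missed the threshold, including those of Egfl7, Apoc2, Tk1 and Insig1, and 1, that of Gadd45a, passed with the opposite sign.

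Of the 112 named genes past the threshold, 44 missed it under at least 1 alternative setting other than leaving out an array, 38 of them in each of the fits without the vehicle arrays. All 44 kept their direction. They were Abcb1b, Apoc2, C1s1, Cd22, Cd59a, Ciita, Clec4g, Creld2, Csf2, Cxcl10, Cyp51, Fabp5, Fam20a, Fcgr2b, Glb1, Hamp, Hexa, Hgf, Ifi205, Il12a, Il1rap, Il33, Insig1, Lbp, Lcn2, Lif, Ly6c1, Mmp12, Mmp9, Mt2, Mxd1, Nfkbib, Nos2, Nqo1, Nupr1, Pcna, Ptprb, Sesn1, Sqle, Tk1, Tnfaip3, Traf1, Tyrobp and Zbtb46. Of the 30 genes with the largest differences, Fam20a was the 1 among them (adjusted p = 0.053 and 0.0544 over the 4 arrays).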

How the data were processed

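RNA of primary mouse Kupffer cells was measured on Illumina bead arrays, 2 per group, grouped by the labels. The bead intensity values were deposited without normalization, made by the authors with GenomeStudio 2011.1 per the submitters' processing notes, and each has a detection p-value beside it, deposited per the file headers. The authors' processed values are on the log2 scale and, as the values show, quantile-normalized. No genome build is given in the sources used here.

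The intensities of the 6 SR3335, SR1078 and vehicle arrays were corrected with limma 3.58.1 in R 4.3.3 (normexp with negative control levels inferred from detection p, offset 16), then quantile-normalized and log2-transformed. To be kept, a probe needed a detection p below 0.05 on 2 or more of the 4 SR3335 and SR1078 arrays. One mean per group was fitted (3 residual degrees of freedom, prior 2.83), with limma's moderated test and Benjamini-Hochberg adjustment over all 12602 kept probes, and the median SE of a log2 difference was 0.0942. The number of arrays limits the precision. If neither array of a group detected a gene, its fold is given as a lower bound, the brighter mean against the higher of the dim signal and the lowest detected one. Symbols of 23962 probes were updated by gene identifier to RefSeq and 1719 probes had none. The lists of 100 genes come from a fit of the M0, LPS and IL-4 arrays normalized on their own.

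Named genes were Il27, Nos2, Igf1, Rora and Klf4, and the 15 largest differences in each direction among passing genes. Up to 4 passing members of each of 42 gene lists, and of each LPS and IL-4 list, were added by size of difference. Other members are named for completeness of a count or were chosen after their values were seen. The comparison, its members and the lists were chosen with earlier results of these data known. The deviations of arrays with the same replicate number hardly correlated between groups (0.038, -0.017 and -0.008). With 2 arrays per group this cannot show whether the samples were paired. Alternatives changed the background correction, normalization, filter, arrays in the fit, variance model and array weights, or left out each array, and the omission of the 30 differing probes was added after the data were seen. The fit was tested on simulated data. Promoter windows are RefSeq's (GRCm38.p6). Figures were drawn with matplotlib 3.10.9 in Python 3.11.15.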

Additional observations from a re-analysis of the deposited data

How the results depend on the processing

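The count of probes past the threshold between SR3335 and SR1078 (850) was 1540 without background correction, 1316 with normexp at offset 50, 1535 in the authors' values, 480 without a filter, 339 over the 4 arrays alone, 346 with normalization over 6 and the fit over 4, and 1889 with a trend in the variance. With the replicate number as a block it was 465. Against vehicle the SR3335 count (761) was 1378, 1184, 1392 and 394 under the first 4 of these, 1203 with a detection p under 0.01 on all 4 arrays, 1731 with a trend and 312 with the replicate block. The SR1078 count (192) was 827, 647, 826 and 41 under the first 4, 641 with the stricter filter, 291 with 1 probe per gene, 1274 with a trend, 0 with the replicate block (2515 at an unadjusted p under 0.05 in limma) and 120 without the 30 differing probes. Its share of higher calls was 74.5% and became 59.4%, 60.9%, 59.2% and 85.4% under the first 4, 59.1% with the stricter filter, 54% with a trend and 85.6% with median centring, which also moved the share between SR3335 and SR1078 to 35.6%, against 51.6%. Leaving out 1 array gave 0 to 343 probes between SR3335 and SR1078, 0 to 315 for SR3335 against vehicle (2051 to 2945 unadjusted) and 0 in every case for SR1078 against vehicle (1844 to 2645 unadjusted), taking a lone array's spread from the other groups. The 13 higher genes of the M1 list were 22 with a trend and 0 to 9 when 1 array was left out. The 37 LPS-raised genes were 22 without a filter, 19 over the 4 arrays or with the fit over 4, and 56 with a trend, and 0 to 19 when 1 array was left out. The 24 LPS-lowered genes were 14 over the 4 arrays or with the fit over 4, and 0 to 14 when 1 array was left out. The 113 named genes were tested under each of the 21 settings, except that the stricter filter kept 95 and the omission of the differing probes 104, and none reversed where tested. Without background correction 22 of the 113 differences were smaller by over 1.5 times, and the cause of the changed counts was not tested. Signal near background limits the dim genes.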
